A study of Mus musculus with 4 samples.

Results

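This report describes 8 genes of the phosphoinositide 3-kinase (PI3K) and AKT pathway in the RNA of mouse splenic B cells: *Akt1*, *Akt2*, *Pik3cd*, *Pik3ca*, *Pik3cg*, *Pik3r1*, *Pik3ap1* and *Foxo1*. They were listed by name, with earlier results of these data known. All 8 of 8 were found among the 41214 genes of the count table and passed the filter on low counts. B220+ splenocytes are spleen cells that carry the B cell form of CD45. Unstimulated cells of MIZ-1WT mice (2 libraries) were compared with those of MIZ-1ΔPOZ mice (2 libraries), in which MIZ-1, a zinc finger transcription factor and partner of MYC, lacks its POZ domain. The MIZ-1ΔPOZ allele arises when Cre recombinase under control of the Mb1 (*Cd79a*) locus, which is active in B lineage cells, removes the floxed sequence of that domain. All lines were on a C57BL/6 background. By the study's methods the mice were adolescents to young adults. The labels do not say whether the MIZ-1WT controls carried Cre.

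PI3K enzymes convert the membrane lipid PIP2 into PIP3. A class I enzyme pairs a catalytic subunit with a regulatory subunit that holds it inactive until it binds a phosphorylated receptor or adaptor. In B cells the adaptor BCAP (*Pik3ap1*) helps to bring PI3K to the B cell receptor. PIP3 then draws AKT kinases to the membrane, where PDK1 and mTORC2 activate them, and active AKT phosphorylates FOXO1 and so keeps this transcription factor out of the nucleus. The pathway sustains the survival of resting B cells, and FOXO1 controls genes of B cell development, homing and quiescence. How active the pathway is depends on phosphorylation of lipids and proteins, which RNA levels do not show.

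Each library held between 43026814 and 46387209 counts on genes. A gene was tested where 2 or more libraries had 10 or more counts, which kept 14554 genes. Levels are given as CPM (counts scaled by library size and TMM factor), and as RPKM (CPM per kilobase of annotated exon) wherever genes are compared with each other. Log2 fold changes are MIZ-1ΔPOZ over MIZ-1WT and were fitted in edgeR. Its quasi-likelihood p-values were adjusted over all tested genes by the Benjamini-Hochberg method, and an adjusted p under 0.05 was called. With 2 libraries against 2 an exact permutation test cannot go below p = 0.333, so all calls rest on the spread that edgeR shares across genes. Between the genotypes 5822 genes passed, which is 40.0% of those tested (21.1% higher and 18.9% lower in MIZ-1ΔPOZ). *Zbtb17*, which encodes MIZ-1, had counts of 2087 and 1946 in MIZ-1WT and of 1774 and 1669 in MIZ-1ΔPOZ (log2 fold change -0.32, adjusted p = 0.00857 by edgeR, and 0.0696 without MIZ-1WT replicate 1). These counts cover all exons together and do not show the loss of the POZ sequence. *Cd79a*, the locus of the Cre, fell by 1.44 on the log2 scale (adjusted p = 0.00157 by edgeR). The X-inactivation transcript *Xist* had 49 and 60 counts in MIZ-1WT and 38145 and 40838 in MIZ-1ΔPOZ, and 4 Y-linked genes fell by 4.29 to 4.66 on the log2 scale, so that sex and genotype cannot be told apart in any result that follows.

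Markers of other cells moved with the genotype too. Of 16 macrophage markers, 16 rose, with a median log2 fold change of 1.98, and their summed level was 982.3 and 1307 CPM in MIZ-1WT and 5843 and 3655 CPM in MIZ-1ΔPOZ. Of 10 pan-B cell markers 8 fell, with a median of -0.26 (-0.25 without *Cd79a*) and sums of 10565 and 10757 CPM against 8569 and 9017 CPM. Of 8 plasma cell markers 7 rose (median 1.04), of 8 marginal zone B cell markers 7 rose (median 0.70), and of 5 follicular B cell markers 3 fell and 1 rose (median -0.51). T cell markers had a median of 0.03, with 2 of 13 higher and 1 lower. These marker counts stand beside 40.0% of all tested genes called. These libraries are of a bulk population, in which fewer cells of a type and less RNA per cell cannot be told apart. The part of the marker shifts in the results on the pathway was not tested.

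Since all 8 genes moved with genotype, their promoters were searched for the letters of 2 binding motifs, a choice made after their values were seen. RefSeq gives 16 promoter windows for the 8 genes (GRCm38.p6), each of the same length and reaching from before the start site to shortly after it. The FOXO core TGTTTAC, on either strand, was found in 2 of the 16, against 3.65% of all 32851 windows. The E-box CACGTG, which reads alike on both strands and is bound by MYC, was found in 1 of the 16, against 7.15% of all windows. The 3 stretches are shown 5′ to 3′ on the strand of the gene, with the motif in capitals, because they are the windows in which either motif was found.
*Akt1* (FOXO core, first base 161 bases before the start site, chr12:112675028-112675056, minus strand): atctaccctctTGTTTACactcctggtga
*Pik3cg* (FOXO core on the opposite strand, first base 92 bases before the start site, chr12:32208545-32208573, minus strand): tttttcctaaaGTAAACAaatgatcctcc
*Pik3ap1* (E-box, first base 172 bases before the start site, chr19:41385258-41385285, minus strand): ctttcgggacaCACGTGgcacgagcagg
The *Pik3cg* stretch lies inside the first exon of longer GENCODE transcripts, and those of *Akt1* and *Pik3ap1* lie outside annotated exons. A match of letters is a description only, and binding was not analysed here.

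All 8 genes passed the threshold: *Akt1* alone rose in MIZ-1ΔPOZ, and the other 7 fell. The falls were small, from 10.3% for *Pik3r1* to 31.7% for *Foxo1*, and the rise of *Akt1* was 38.4%. The 8 passed against a background in which 40.0% of all tested genes did. In none of the 8 did the libraries of one genotype overlap those of the other, which held for 74.8% of all tested genes (37.6% lower and 37.2% higher in MIZ-1ΔPOZ). At the median, the 8 differed by -0.22 on the log2 scale, beside -0.01 over the whole table. Of all tested genes, 26.1% changed by more than *Foxo1*, 30.6% by more than *Akt1* and 67.4% by more than *Pik3r1*.

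**Figure D1:**
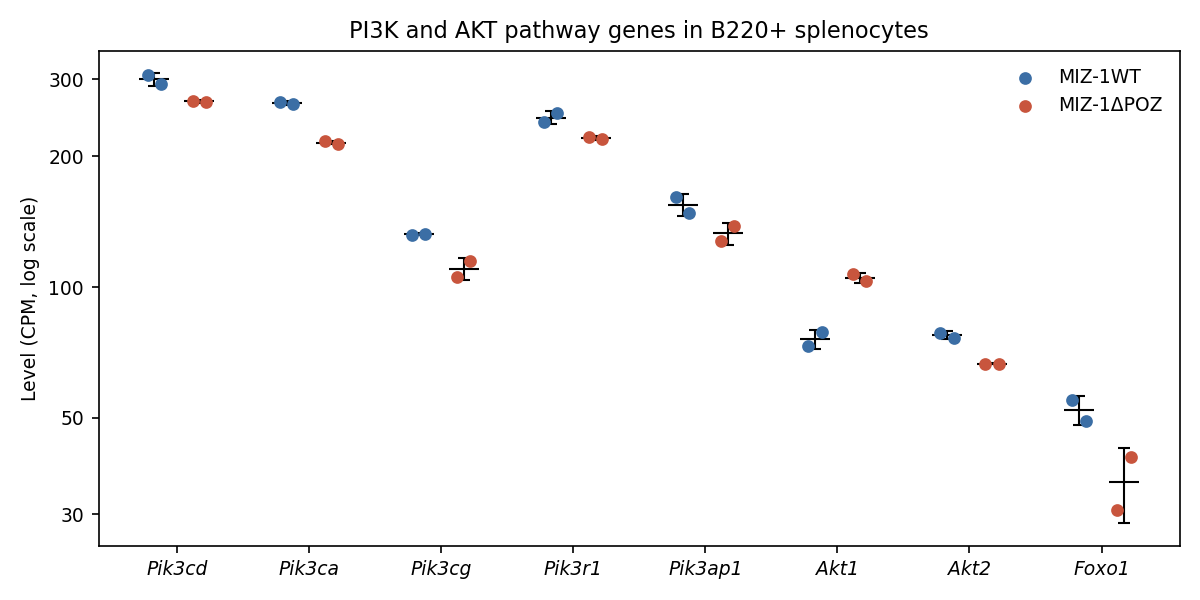
Level of each of the 8 genes in CPM (log axis), with a point per library, blue for MIZ-1WT and red for MIZ-1ΔPOZ, and the mean ± SD of 2 libraries in black. The red points lie below the blue ones for 7 genes and above them for *Akt1*, and the red points of *Foxo1*, at 30.7 and 40.6 CPM, lie farthest apart.

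Among the catalytic subunits, *Pik3cd* (ENSMUSG00000039936, chromosome 4 from 149649168 to 149702571, minus strand) encodes p110δ, the leading isoform of leukocytes. It had 307.2 and 293.4 CPM in MIZ-1WT and 268.3 and 265.7 CPM in MIZ-1ΔPOZ. Both MIZ-1ΔPOZ libraries were lower than both controls, by a log2 fold change of -0.17 (SE 0.05, 95% interval -0.28 to -0.05, adjusted p = 0.0335 by edgeR). *Pik3ca* (ENSMUSG00000027665, chromosome 3 from 32397671 to 32468486, plus strand) encodes p110α, which is present in most cell types. Its level was 266.5 and 263.2 CPM in MIZ-1WT and 216.1 and 213.6 CPM in MIZ-1ΔPOZ. The replicates of each genotype were within 4 CPM of each other, and the log2 fold change was -0.30 (SE 0.04, 95% interval -0.41 to -0.20, adjusted p = 0.00448 by edgeR). *Pik3cg* (ENSMUSG00000020573, chromosome 12 from 32173473 to 32208659, minus strand) encodes p110γ, the isoform that G protein-coupled receptors engage. It had 131.7 and 132.6 CPM in MIZ-1WT and 105.7 and 114.8 CPM in MIZ-1ΔPOZ. The controls were nearly equal and the MIZ-1ΔPOZ libraries were lower and less even, with a log2 fold change of -0.26 (SE 0.05, 95% interval -0.40 to -0.13, adjusted p = 0.0151 by edgeR). 

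The fourth class I catalytic subunit, *Pik3cb* (p110β), was barely present and went the other way, from 2.89 and 3.45 CPM to 6.70 and 5.31 CPM (log2 fold change 0.92, adjusted p = 0.013 by edgeR). Its call was lost without MIZ-1WT replicate 1 (adjusted p = 0.089 by edgeR). The summed RPKM of the 4 class I subunits was 94.4 and 92.0 in MIZ-1WT and 80.1 and 80.3 in MIZ-1ΔPOZ. *Pik3cd* took 51.4% ± 0.735 (SD, n = 2) of that sum in MIZ-1WT and 53.2% ± 0.450 in MIZ-1ΔPOZ. *Pik3ca* took 31.3% ± 0.286 and 29.5% ± 0.294, and *Pik3cg* 16.8% ± 0.381 and 16.3% ± 0.916. The sum was lower in both MIZ-1ΔPOZ libraries, while its makeup moved by under 2 percentage points for each subunit. Beyond class I, *Pik3c2b* of class II, with a log2 fold change of -0.40, and *Pik3c3* (VPS34) of class III, with -0.19, fell as well, and *Pik3c2a* did not pass (-0.07, adjusted p = 0.414 by edgeR). In all, 5 of the 7 catalytic subunits tested fell and 1 rose, with a median of -0.19. That is 85.7% called, beside 40.0% of all tested genes.

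**Figure D2:**
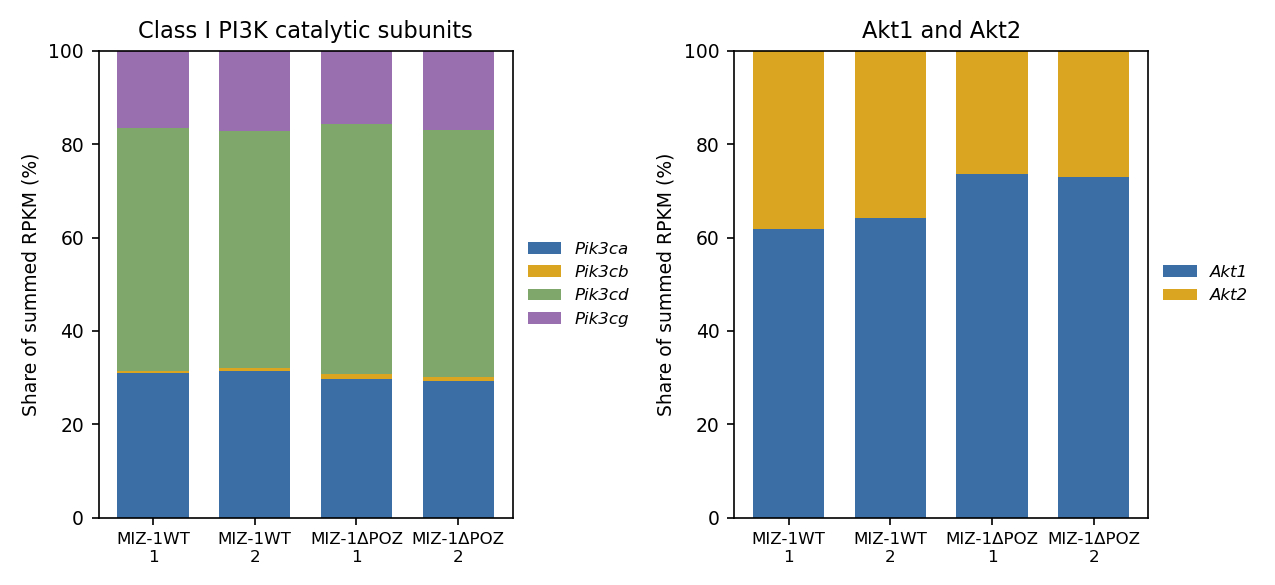
Share of each gene in the summed RPKM of its family (percent) in each of the 4 libraries, for the 4 class I catalytic subunits on the left and for *Akt1* and *Akt2* on the right. The catalytic subunits keep much the same shares in the 4 libraries, whereas *Akt1* takes 61.8% and 64.2% in MIZ-1WT and 73.7% and 72.9% in MIZ-1ΔPOZ.

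*Pik3r1* (ENSMUSG00000041417, chromosome 13 from 101680563 to 101768217, minus strand) encodes the regulatory subunit p85α and its shorter forms, which stabilise the catalytic subunit and restrain it. It had 239.2 and 251.3 CPM in MIZ-1WT and 221.4 and 218.5 CPM in MIZ-1ΔPOZ. Both MIZ-1ΔPOZ libraries were lower, by a log2 fold change of -0.16 (SE 0.05, 95% interval -0.27 to -0.04, adjusted p = 0.0424 by edgeR). This was the smallest change of the 8, and DESeq2's Wald test did not call it (adjusted p = 0.0529). The other regulatory subunits that passed were higher. *Pik3r4*, the partner of VPS34, rose from 174.2 and 172.7 CPM to 228.5 and 244.9 CPM (log2 fold change 0.45, adjusted p = 0.00258 by edgeR). *Pik3r3*, near 4 CPM in MIZ-1WT, had a log2 fold change of 0.49 (adjusted p = 0.0304 by edgeR), a call lost in each refit that left out a library (adjusted p from 0.0617 to 0.158). *Pik3r6*, a partner of p110γ, rose by 1.52 from near 1 CPM (adjusted p = 0.016 by edgeR), a call lost without MIZ-1WT replicate 1 (adjusted p = 0.0697). Of the 6 regulatory subunits 3 rose and 1 fell, with a median of 0.26. That is 66.7% called, beside 40.0% of all tested genes. *Pik3r1* still held 66.1% ± 1.23 (SD, n = 2) of the summed RPKM of the 5 class I regulatory subunits in MIZ-1WT and 62.3% ± 0.419 in MIZ-1ΔPOZ.

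*Pik3ap1* (ENSMUSG00000025017, chromosome 19 from 41272377 to 41385102, minus strand) encodes BCAP, which binds p85 once the B cell receptor has been engaged. It had 160.8 and 148.3 CPM in MIZ-1WT and 127.3 and 138.4 CPM in MIZ-1ΔPOZ. The groups did not overlap, but the distance between replicates in each was larger than the gap between the nearest libraries of the 2 genotypes. Its log2 fold change was -0.22 (SE 0.06, 95% interval -0.38 to -0.06, adjusted p = 0.0424 by edgeR). Among the 14 receptors and adaptors upstream of PI3K, 5 rose and 5 fell, with a median of -0.06. That is 71.4% called, beside 40.0% of all tested genes. The kinase *Syk*, which acts directly below the B cell receptor, fell by 0.23 (adjusted p = 0.0219 by edgeR). *Cd81*, a tetraspanin of the cell surface, rose from 222.6 and 227.8 CPM to 316.0 and 297.3 CPM (log2 fold change 0.45, adjusted p = 0.0025 by edgeR). The docking proteins *Gab2* (log2 fold change 1.72) and *Gab1* (1.87) rose from under 3 CPM, and the call of *Gab1* was lost without MIZ-1WT replicate 1 (adjusted p = 0.0627 by edgeR). *Lyn* and *Blnk* had log2 fold changes of -0.06 and -0.05 and did not pass.

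Among lipid phosphatases, *Inpp5d* (SHIP1), which removes a phosphate from PIP3, had 454.2 and 454.8 CPM in MIZ-1WT and 385.6 and 409.3 CPM in MIZ-1ΔPOZ. Both MIZ-1ΔPOZ libraries were lower, by a log2 fold change of -0.19 (adjusted p = 0.0285 by edgeR). *Tnfaip8l2* (TIPE2), which restrains phosphoinositide signalling, fell by 0.48 (adjusted p = 0.00372 by edgeR). *Inppl1* (SHIP2) rose by 0.46, but its call was lost without either MIZ-1WT replicate (adjusted p = 0.0797 and 0.0867 by edgeR), and its exons overlap *Gm10602* over 1204 bases on the opposite strand, a gene with 0 to 2 counts per library. Of the 7 phosphatases and inhibitors 3 fell and 1 rose, with a median of -0.18. That is 57.1% called, beside 40.0% of all tested genes.

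*Akt1* and *Akt2* changed in opposite directions. *Akt1* (ENSMUSG00000001729, chromosome 12 from 112653821 to 112674884, minus strand) encodes the most widely expressed isoform. It had 73.2 and 78.7 CPM in MIZ-1WT and 106.9 and 103.1 CPM in MIZ-1ΔPOZ. The 2 genotypes were far apart beside the distance between replicates, with a log2 fold change of 0.47 (SE 0.06, 95% interval 0.33 to 0.61, adjusted p = 0.00297 by edgeR). *Akt2* (ENSMUSG00000004056, chromosome 7 from 27591552 to 27640826, plus strand) encodes the isoform best known from insulin signalling. Its level was 78.6 and 76.3 CPM in MIZ-1WT and 66.5 and 66.7 CPM in MIZ-1ΔPOZ. The MIZ-1ΔPOZ replicates were nearly equal and below both controls, with a log2 fold change of -0.22 (SE 0.05, 95% interval -0.34 to -0.10, adjusted p = 0.0183 by edgeR).

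Per length of exon, *Akt1* had 18.5 ± 0.95 RPKM (SD, n = 2) and *Akt2* 10.9 ± 0.224 RPKM in MIZ-1WT, against 25.6 ± 0.645 RPKM and 9.34 ± 0.0168 RPKM in MIZ-1ΔPOZ. The summed RPKM of both genes was 28.9 and 29.9 in MIZ-1WT and 35.4 and 34.5 in MIZ-1ΔPOZ. *Akt1* took 61.8% and 64.2% of that sum in MIZ-1WT and 73.7% and 72.9% in MIZ-1ΔPOZ, so that both the sum and the part of *Akt1* in it were higher there. The ratio of *Akt1* to *Akt2* in RPKM was 1.62 and 1.79 in MIZ-1WT and 2.80 and 2.69 in MIZ-1ΔPOZ, with no overlap.

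Of the 17 AKT kinases, activators and phosphatases tested, 7 fell and 1 rose, and *Akt1* was the one that rose. In this list 47.1% were called, beside 40.0% of all tested genes. *Trib2*, a pseudokinase of the Tribbles family, fell from 116.3 and 105.6 CPM to 56.9 and 62.5 CPM (log2 fold change -0.89, adjusted p = 0.00129 by edgeR). *Sgk3*, an AKT-related kinase that PI3K also activates, fell by 0.57 (adjusted p = 0.00136 by edgeR). *Pdpk1*, the gene of PDK1, fell by 0.23, and *Rictor*, the defining subunit of mTORC2, fell by 0.51 (adjusted p = 0.0027 by edgeR). Of the other subunits specific to mTORC2, *Mapkap1* had 75.2 and 74.0 CPM against 75.2 and 74.6 CPM (log2 fold change 0.01, adjusted p = 0.925 by edgeR). *Prr5* had 24.7 and 24.5 CPM against 17.3 and 22.2 CPM (log2 fold change -0.32), which did not pass (adjusted p = 0.0913), nor did *Prr5l*, below 2 CPM in each library.

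Among effectors that bind PIP3, 5 of 11 fell and 0 rose by edgeR, with a median of -0.18. The share called was 45.5%, near the 40.0% of all tested genes. At an unadjusted p under 0.05 in edgeR 1 effector was higher, the guanine exchange factor *Vav3*, with a log2 fold change of 0.39 (adjusted p = 0.0628), and DESeq2's Wald test called it (adjusted p = 0.0244). *Rasa3*, a RAS GTPase-activating protein, fell by 0.47 (adjusted p = 0.002 by edgeR) and the kinase *Tec* by 0.34 (adjusted p = 0.00433). *Btk*, the TEC family kinase that B cell receptor signalling depends on, fell by 0.40 from 116.4 and 119.4 CPM to 83.9 and 94.9 CPM (adjusted p = 0.00822 by edgeR), a call lost without either MIZ-1WT replicate (adjusted p = 0.056 and 0.0592). *Btk* is X-linked, as is *Foxo4* among the AKT substrates.

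*Foxo1* (ENSMUSG00000044167, chromosome 3 from 52268336 to 52353221, plus strand), the AKT substrate among the 8, had 54.9 and 49.3 CPM in MIZ-1WT and 30.7 and 40.6 CPM in MIZ-1ΔPOZ. Its fall was the largest of the 8 and its replicates were the least even, since MIZ-1ΔPOZ replicate 2 lay about midway between its partner and the controls. The log2 fold change was -0.55 (SE 0.14, 95% interval -0.89 to -0.21, adjusted p = 0.0253 by edgeR). Without MIZ-1ΔPOZ replicate 1 or 2 in turn the call held, and without either control it did not (adjusted p = 0.131 and 0.067 by edgeR). Its exons overlap *Gm20402* over 674 bases on the opposite strand, but that gene had only 3 to 7 counts per library. *Foxo4* fell by 0.66 (adjusted p = 0.00183 by edgeR), and *Foxo3* did not pass (log2 fold change -0.17, adjusted p = 0.181). Of the 12 AKT substrates tested 5 fell and 1 rose, with a median of -0.16, so 50% were called, beside 40.0% of all tested genes. *Cdkn1b*, the cell cycle inhibitor p27, fell from 287.0 and 274.5 CPM to 182.8 and 188.5 CPM (log2 fold change -0.60, adjusted p = 0.00118 by edgeR). *Tbc1d4* (AS160), a RAB GTPase-activating protein, was the substrate that rose, by 1.20 from 6.81 and 5.71 CPM (adjusted p = 0.00587).

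In the mTORC1 branch, which drives protein synthesis, the share of calls was that of the background. Of 15 genes 4 fell and 2 rose, with a median of -0.09, and 40.0% of its members were called, beside 40.0% of all tested genes. *Tsc1*, which holds mTORC1 in check, fell by 0.32 (adjusted p = 0.00536 by edgeR), a call lost without MIZ-1WT replicate 2 (adjusted p = 0.0508). *Ddit4* (REDD1), a stress-induced inhibitor of mTORC1, rose from 23.5 and 32.1 CPM to 46.2 and 43.5 CPM (log2 fold change 0.69, adjusted p = 0.0151 by edgeR). *Rps6kb2* fell by 0.33, but *Ptprcap* overlaps it over 1224 bases on the opposite strand with up to 15997 counts, and its call was lost without MIZ-1WT replicate 1 (adjusted p = 0.112 by edgeR).

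Over the whole pathway list, of which 85 of 88 genes were tested, 34 fell, 14 rose and 37 did not pass. That is 56.5% called, beside 40.0% of all tested genes, with a median of -0.12. The 48 calls became 19 without MIZ-1WT replicate 1 and 21 without MIZ-1WT replicate 2, where fewer of all tested genes were called as well. Among the 77 that are not among the 8, 27 fell and 13 rose, or 51.9% called, with a median of -0.10. The pan-B cell markers, with a median of -0.26, lay lower than either.

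**Figure D3:**
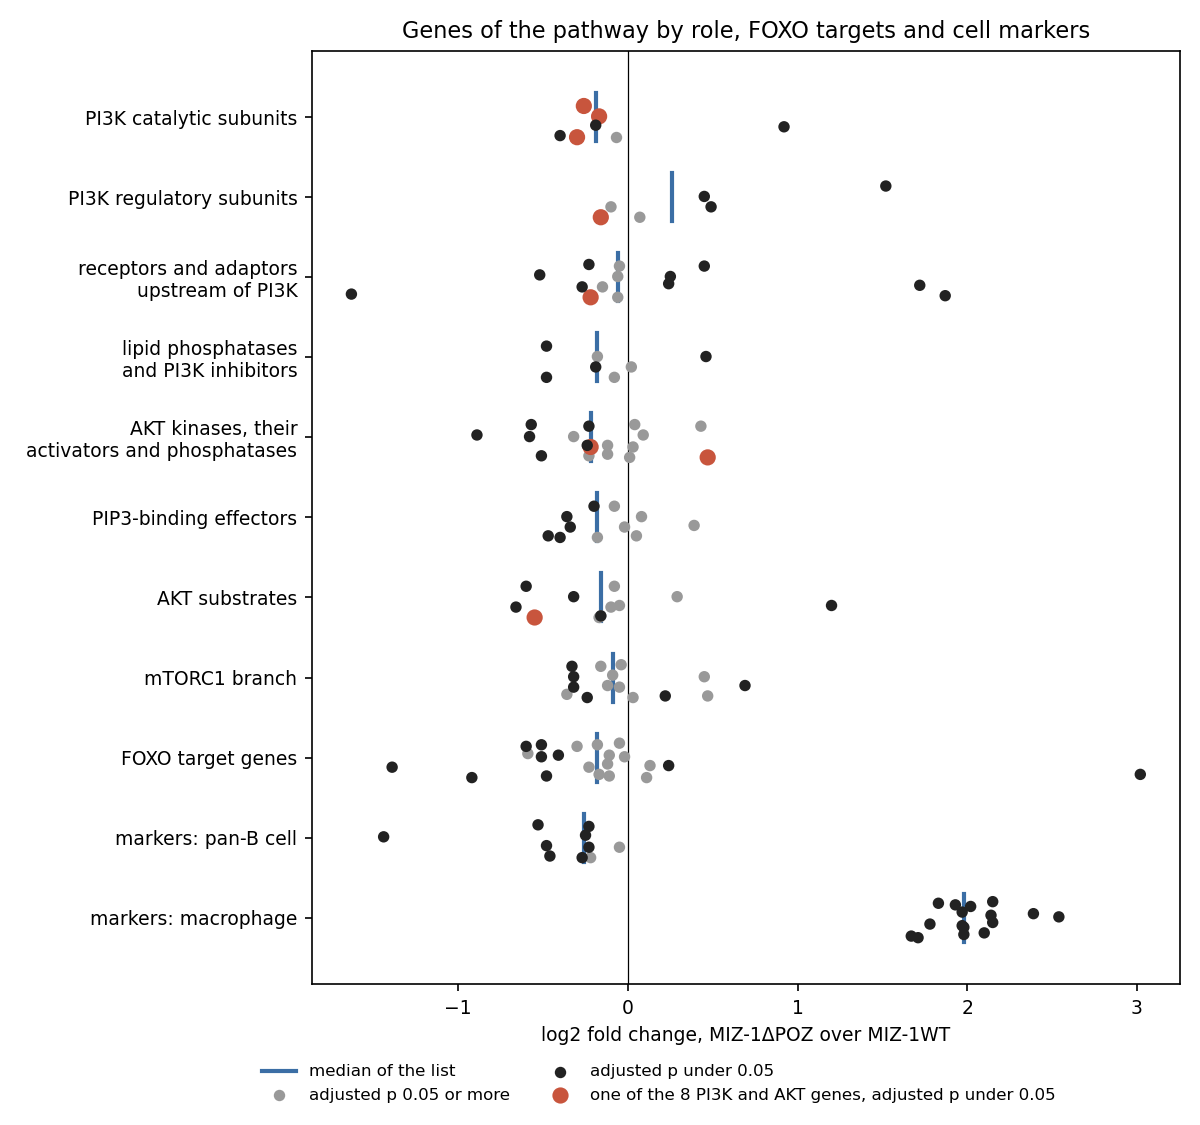
Log2 fold change of MIZ-1ΔPOZ over MIZ-1WT for each tested gene (a point), in rows by role in the pathway, then FOXO target genes and the pan-B cell and macrophage markers, with each list's median as a blue bar. Large red points are the 8 genes, black points other genes with an adjusted p under 0.05 and grey points the rest. The red points lie left of 0 except that of *Akt1* at 0.47, and macrophage markers lie between 1.67 and 2.54.

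FOXO1 acts on many genes, and a list of 22 genes known as targets of FOXO factors was examined beside it. Of the 21 tested, 7 fell and 2 rose, with a median of -0.18, so 42.9% were called, close to the 40.0% of all tested genes. *Klf2*, a regulator of lymphocyte quiescence and homing, fell from 93.0 and 106.4 CPM to 47.2 and 58.1 CPM (log2 fold change -0.92, adjusted p = 0.00333 by edgeR). *Ccng2*, an atypical cyclin of quiescent cells, fell by 0.48 (adjusted p = 0.00226) and *Cdkn1b*, given above, belongs to this list as well. *Ccr7* (-0.51) and *Klhl24* (-0.51) fell too, while *Il7r* (log2 fold change 0.11), *S1pr1* (-0.02) and *Sesn3* (-0.11) did not pass. *Irs2*, an insulin receptor adaptor, was higher, with 46 and 47.7 CPM in MIZ-1WT and 52.8 and 57.9 CPM in MIZ-1ΔPOZ (log2 fold change 0.24, adjusted p = 0.0337 by edgeR). *Klf2* and *Ccr7* were also on the list of follicular B cell markers, and the pathway list and this one share *Cdkn1b*, *Irs2*, *Pik3ip1* and *Blnk*.

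By level per length, the 8 genes spanned from 48.0 ± 1.55 RPKM (SD, n = 2) for *Pik3cd* to 6.02 ± 0.454 RPKM for *Foxo1* in MIZ-1WT. The order between them was *Pik3ca* (29.1 RPKM), *Pik3ap1* (27.7), *Pik3r1* (24.3), *Akt1* (18.5), *Pik3cg* (15.7) and *Akt2* (10.9). In MIZ-1WT the libraries of *Pik3ap1* (28.9 and 26.6 RPKM) and *Pik3ca* (29.3 and 29.0 RPKM) were next to each other and differed by less than the spread of *Pik3ap1*. In MIZ-1ΔPOZ *Pik3cd* stayed first with 42.7 ± 0.288 RPKM and *Akt1* moved to the second place with 25.6 RPKM, followed by *Pik3ap1* (23.8), *Pik3ca* (23.6) and *Pik3r1* (21.8). There the libraries of *Pik3ap1* (22.8 and 24.8 RPKM) and *Pik3ca* (23.8 and 23.5 RPKM) overlapped, and the last 3 genes kept their order, *Pik3cg* with 13.1, *Akt2* with 9.34 and *Foxo1* with 4.11 RPKM. This order depends in part on the length used. Per kilobase of the longest transcript, an alternative chosen after the data were seen, *Pik3r1* (34.5 in MIZ-1WT and 30.9 in MIZ-1ΔPOZ) and *Pik3ap1* (34.5 and 29.6) stood above *Pik3ca* (29.7 and 24.1). *Pik3cd* (61.0 and 54.3) stayed first, *Akt1* went from the fifth place (28.2) to the second (39.0), and the last 3 genes kept their order.

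The 8 genes also differed in how they followed marker levels within a genotype, which is given as a description over 2 libraries each. From replicate 1 to replicate 2 of MIZ-1ΔPOZ, *Foxo1* differed by 0.40 on the log2 scale, follicular B cell markers by 0.45 and macrophage markers by -0.63, each the median of the differences of single genes. In MIZ-1WT, *Foxo1* differed by -0.15, follicular B cell markers by 0.06 and macrophage markers by 0.38. *Akt1* differed by 0.10 in MIZ-1WT and by -0.05 in MIZ-1ΔPOZ, and *Pik3ca* by -0.02 in both. *Pik3ap1* differed by -0.12 and 0.12, and neutrophil markers, with sums of at most 17.9 CPM, by -0.89 and 0.90. *Foxo1* and *Pik3ap1* were both lower in the replicate with higher macrophage and lower neutrophil markers of each genotype. This pattern was not particular to them. *Cblb*, for example, had 72.7 and 65.3 CPM in MIZ-1WT and 42.6 and 53.9 CPM in MIZ-1ΔPOZ, and *Gsk3b* showed the same order. The share of all tested genes with this pattern was not counted. The part of these marker lists in the changes of *Foxo1* and *Pik3ap1* was not tested.

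**Figure D4:**
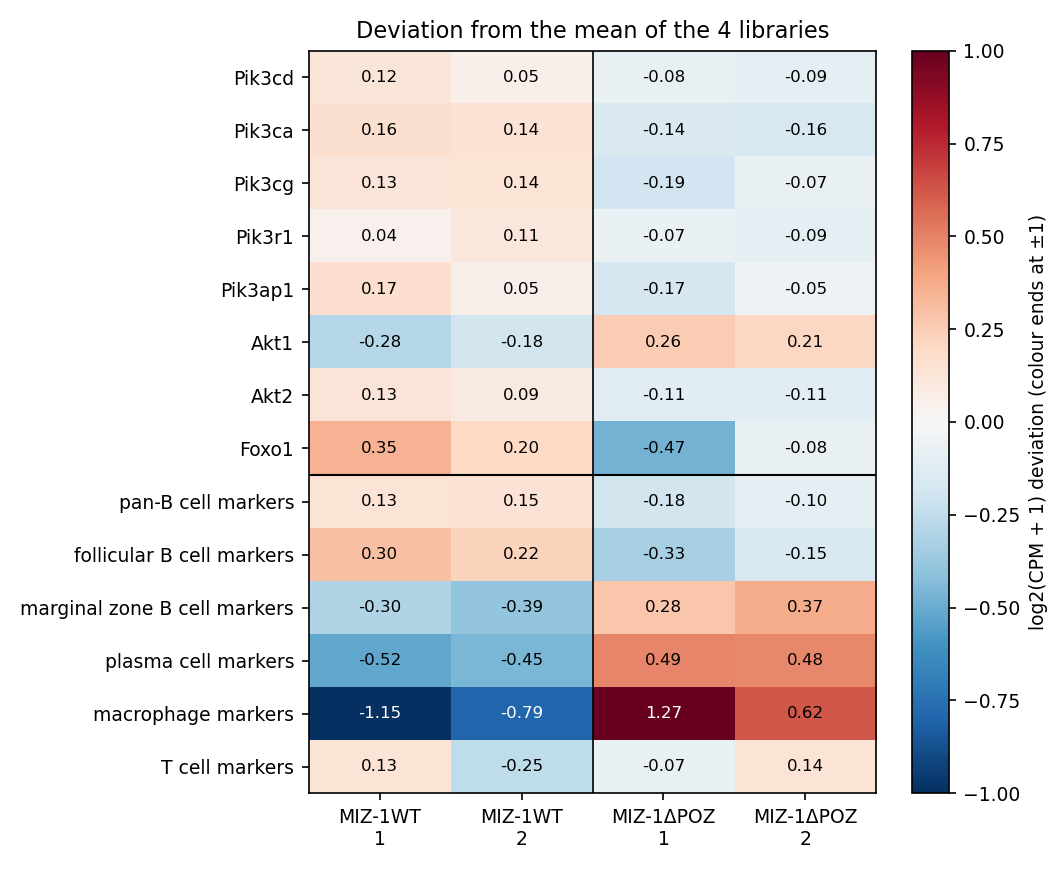
Deviation of each library from the mean of the 4 libraries, in log2(CPM + 1), for the 8 genes (above the line) and as the median over each marker list (below it); red is higher and blue lower, and colours end at 1 in either direction. *Foxo1* stands at -0.47 and -0.08 in the MIZ-1ΔPOZ libraries, where macrophage markers stand at 1.27 and 0.62 and follicular B cell markers at -0.33 and -0.15.

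For the 2 genes with the smallest p, *Akt1* and *Pik3ca*, the nearest profiles were sought among 8504 protein-coding genes with a mean of at least 10 CPM, by Euclidean distance of log2 CPM centred over the 4 libraries. *Rrbp1* (distance 0.020), *Lars* (0.023) and *Tmem106c* (0.024) were nearest to *Akt1*, with log2 fold changes of 0.46 to 0.49. *Atxn3* (0.006), *Cript* (0.010) and *Rmc1* (0.013) were nearest to *Pik3ca*, with log2 fold changes of -0.31 to -0.29. Within a distance of 0.1 there were 112 genes for *Akt1* and 702 for *Pik3ca*, so that with 4 libraries such profiles are common.

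Of the 8 calls, that of *Akt1* held whichever library was left out, and each of the other 7 was lost in at least 1 such refit. Leaving out MIZ-1WT replicate 1 left *Akt1* as the only one of the 8 past the threshold (adjusted p = 0.0343 by edgeR), with 15.1% of all tested genes called. Leaving out MIZ-1WT replicate 2 left *Akt1* (adjusted p = 0.0201) and *Pik3ca* (adjusted p = 0.0405), with 19.4% of all tested genes called. Without MIZ-1ΔPOZ replicate 1, *Pik3ap1* and *Pik3r1* were lost (adjusted p = 0.0966 and 0.0545 by edgeR), and without MIZ-1ΔPOZ replicate 2, *Pik3cd* and *Pik3r1* (adjusted p = 0.0713 and 0.0887). The direction of all 8 held in each of these refits, in which the log2 fold change of *Akt1* lay between 0.42 and 0.52 and that of *Foxo1* between -0.75 and -0.36.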

How the data were processed

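RNA-seq was done on B220+ splenocytes selected with magnetic beads from 2 MIZ-1WT and 2 MIZ-1ΔPOZ samples, given as biological duplicates. The authors depleted ribosomal RNA, made stranded paired-end libraries, trimmed reads with Trimmomatic, mapped them to the mouse genome (GRCm38, TopHat2 version 2.1.0 in the submitters' processing notes) and counted them with HTSeq. The strand setting of the counting is not given in the sources used here, so genes that overlap on opposite strands are uncertain. The deposited values are raw counts per Ensembl gene, neither normalized nor pooled.

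GENCODE M21 gave symbols to 40340 of 41214 genes. Summary lines of the counter (no feature 21.1% to 27.2%, no unique alignment 42.8% to 44.1%, ambiguous 0.281% to 0.302%) were left out. Genes with 10 or more counts in 2 or more libraries (14554) were fitted with edgeR (version 4.0.16; R version 4.3.3) by its quasi-likelihood method. TMM factors lay between 0.977 and 1.03, and p-values were adjusted over these genes by Benjamini-Hochberg. The common dispersion was 0.00848. Each SE was derived as the absolute log2 fold change divided by the square root of edgeR's F statistic. The 95% intervals used this SE and a t quantile. RPKM used the union of annotated exons. The fit was tested on simulated counts, drawn with the common dispersion for every gene. It recovered 42.7% of the 96 genes changed by 0.5 on the log2 scale and 92% of the 100 changed by 1. There were 4 false calls among 14343 genes. Far fewer genes were changed in the simulation than the 40.0% called in the data, so these rates do not carry over to the data.

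The 8 genes and all lists were chosen with earlier results of these data known. Named genes were the 8, up to 3 genes with the smallest p per list, *Zbtb17*, *Cd79a* and the 3 nearest profiles of 2 genes. Some genes that meet this rule are not reported here. Other pathway, FOXO target and sex-linked genes, and the promoter motifs, were named or chosen after their values were seen. Alternatives were DESeq2 size factors, DESeq2 version 1.42.0, other filters, a replicate block, removal of 214 immunoglobulin genes, transcript lengths and leaving out each library. A planned search for protein motifs was not run here. *Pik3c2g*, *Tcl1*, *Foxo6* and *Rag2* did not pass the filter on low counts, and *Ighd* was not analysed here.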

Additional observations from a re-analysis of the deposited data

How the results depend on the processing

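All 8 genes kept their direction in each alternative run. All 8 passed with DESeq2's size factors in edgeR (40.0% of all tested genes called), with no filter on counts (28.3%) and without immunoglobulin genes (40.4%). With DESeq2's Wald test 7 passed, beside 34.9% of all tested genes. With a mean of at least 30 RPM required, 4 of the 8 passed. *Akt2* (adjusted p = 0.0609 by edgeR), *Pik3ap1* (0.133), *Pik3cd* (0.167) and *Pik3r1* (0.217) did not. Over the pathway list 28 of 60 tested genes passed, beside 45.4% of all genes tested with that filter. That filter also shifted the median of the log2 fold changes by 0.076. Leaving out 1 library, with its lone partner assumed to vary like the other genotype, left 1 to 6 of the 8 genes and 19 to 50 genes of the pathway list. Over the tested genes, the deviations of same-numbered replicates had a correlation of -0.0688 across genotypes. With 2 libraries per genotype this cannot tell whether the numbers pair the samples. With a replicate block 4 of the 8 passed, beside 32.5% of all tested genes. *Akt2*, *Pik3ap1*, *Pik3cd* and *Pik3r1* did not pass there (adjusted p from 0.0532 to 0.0981 by edgeR). With the length of the longest transcript, the share of *Pik3cd* was 53.7% in MIZ-1WT and 55.3% in MIZ-1ΔPOZ, and that of *Akt1* in the sum of *Akt1* and *Akt2* was 62.3% and 72.7%. The cause of each lost call was not tested.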
